A study of Saccharomyces cerevisiae with 6 samples.

Results

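The genes described are the 43 nuclear genes for the NADH dehydrogenases, complexes II to IV, cytochrome c and the ATP synthase (complex V) of budding yeast. The genes were taken by symbol from a fixed list, which was chosen with earlier results of these data known. The platform annotation named a spot, 1 per gene, for 41 of them among 5379 named genes, and 40 had a value on all 3 arrays among 4336 genes tested. COX7 and QCR10 had no named spot, and ATP19 had no value on replicate 2. Cultures of Saccharomyces cerevisiae S288C, a laboratory strain, grew in rich medium with 2% glucose, 2% polypeptone and 1% yeast extract at 25 °C. At an optical density of 1 methanol was added to 5% and the cells were collected 2 h later, while untreated cultures grew on for the same 2 h. Poly(A) RNA of a treated culture (Cy5) and an untreated culture (Cy3) shared each of 3 arrays from independent biological samples, and each array was read by the scanner once with a strong and once with a weak laser (high and low power). S288C carries a transposon insertion in HAP1, the gene of a haem-dependent activator of respiratory genes, which lowers the activity of that activator.

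The respiratory chain passes electrons from NADH and succinate through coenzyme Q, complex III and cytochrome c to oxygen at complex IV, and the proton gradient built on the way drives the ATP synthase. Budding yeast has no proton-pumping complex I: single-protein dehydrogenases on the outer face (NDE1, NDE2) and the inner face (NDI1) of the inner mitochondrial membrane take its place. Glucose represses many of these genes, and the HAP2/3/4/5 activator, with HAP4 as its regulated subunit, raises them when glucose runs out.

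Values are log2 ratios of methanol over untreated, as mean ± SD over n = 3 arrays, each array centred on its median gene. The log base is not given with the values and was read as 2, and the direction is likely rather than stated, because the labels give Cy5, the first channel, to the treated RNA. The dyes were not swapped, so a dye effect particular to a gene stays in its ratio. If the ratio ran the other way, every sign, rank and share given below would turn with it: the 20 members called higher would be 20 called lower against 26.0% of all genes, and the 3 called lower would be higher against 24.2%. Ratios carry no level, so genes cannot be ranked by abundance, and a ratio of 0 means no change relative to the median gene. Pearson's r between arrays over all genes tested lay between 0.82 and 0.89, and over the 40 members between 0.87 and 0.93, where genes are not independent replicates. The arrays gave values for 5166, 4399 and 5339 genes on replicates 1, 2 and 3.

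Transcripts of the respiratory chain were on balance higher after methanol, but not as a block: subunits of the same complex moved in opposite directions. Of the 40 genes tested, 20 were called higher (50%), 3 lower and 17 not called at limma's Benjamini-Hochberg adjusted p under 0.05. Over all 4336 genes tested, 26.0% were called higher and 24.2% lower, and the median was −0.01 against 0.33 for the members. Because the members were chosen with earlier results of these data known, these shares are a description and no test of the set. The members' median was above 0 on every array, at 0.36, 0.28 and 0.40 on replicates 1, 2 and 3. At least 2-fold rises that were called numbered 6 (NDE2, SDH4, ATP15, COX9, ATP18 and SDH1), or 15% of the members against 7.54% of all genes, and at least 2-fold falls 0, against 5.63% of all genes. All 23 called members had the same sign on all 3 arrays. Without replicate 1 the counts were 10 higher and 0 lower (15.3% and 13.1% of all genes tested), and without replicate 3 they were 12 and 1 (20.0% and 17.0%). Whichever array was left out, 10 of the 20 genes called higher and 0 of the 3 called lower kept their call, and all 23 kept their sign.

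**Figure D1:**
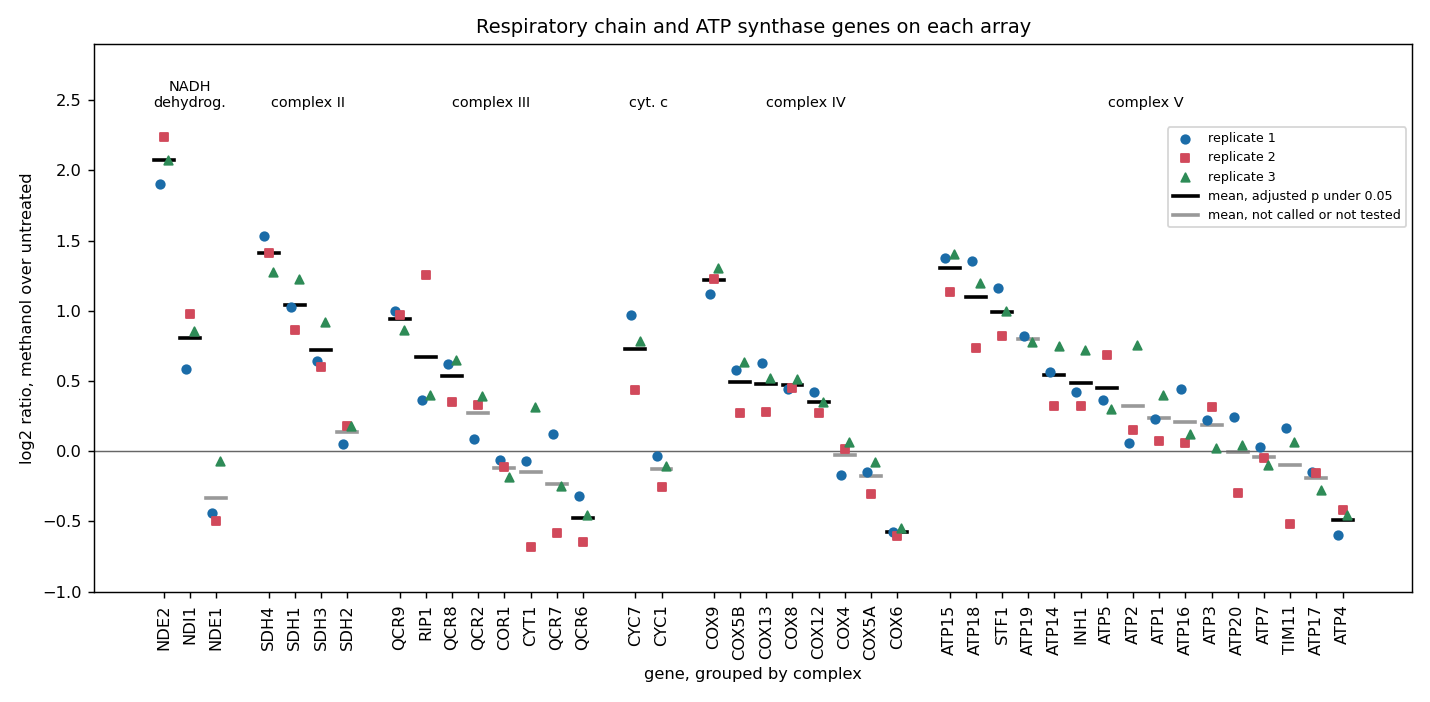
Log2 ratio of methanol over untreated (vertical axis) for the 41 genes with a value, grouped by complex and ordered by mean within it; each symbol is 1 array and each line the mean, black where the adjusted p was under 0.05. Every complex has genes near or below 0, and the 3 called falls are QCR6, COX6 and ATP4.

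The alternative external NADH dehydrogenases, which oxidise cytosolic NADH, moved apart. NDE2 (YDL085W) stood at 1.90, 2.24 and 2.08 on replicates 1, 2 and 3, the highest value of any member on each array. Its mean of 2.07 ± 0.17, or 4.21-fold (limma adjusted p = 6.43e-05), was the 50th highest of the 4336 genes, or the 50th lowest if the ratio were turned. It had values in the high-power scans alone. NDE1 (YMR145C), its paralogue, stood at −0.44, −0.50 and −0.07, below 0 on every array. The mean of −0.34 ± 0.23 did not pass the test (adjusted p = 0.0788). From low-power values only, NDE1 was called lower (−0.43, adjusted p = 0.0244), as it was among genes valued in all 6 scans (−0.31, adjusted p = 0.0413). With high-power values alone (−0.24, adjusted p = 0.164) or first (−0.24, adjusted p = 0.156) NDE1 was not called. NDI1 (YML120C), the internal enzyme that takes electrons from matrix NADH, stood at 0.58, 0.98 and 0.85, and rose 1.75-fold (0.80 ± 0.20, adjusted p = 0.00241).

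Complex II is succinate dehydrogenase, which links the citric acid cycle to the chain, and 3 of its 4 genes rose (26.0% of all genes). SDH4 (YDR178W), a membrane anchor, stood at 1.53, 1.41 and 1.28, so the arrays lay close together. It rose 2.65-fold (1.41 ± 0.13, adjusted p = 0.000168). SDH1 (YKL148C), the flavoprotein subunit that binds succinate, stood at 1.03, 0.86 and 1.23 and rose 2.05-fold (1.04 ± 0.18, adjusted p = 0.00076). SDH3 (YKL141W), the other membrane anchor, stood at 0.64, 0.60 and 0.92 and rose 1.65-fold (0.72 ± 0.17, adjusted p = 0.00343). All 3 kept their calls without any 1 array. SDH2 (YLL041C), the iron-sulphur subunit between them, differed: it stood at 0.05, 0.18 and 0.18, with a mean of 0.14 ± 0.07 (adjusted p = 0.376) and a 95% interval of −0.15 to 0.42. SDH2 lay below the other genes of its complex on all 3 arrays.

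Complex III, the cytochrome bc1 complex, had 3 of 8 tested genes higher and 1 lower (26.0% and 24.2% of all genes), with a median of 0.08. QCR9 (YGR183C), a small subunit, stood at 1.00, 0.97 and 0.86 and rose 1.92-fold (0.94 ± 0.07, adjusted p = 0.000807). It was the one gene of complex III whose call held without any 1 array. QCR8 (YJL166W), another small subunit, stood at 0.62, 0.35 and 0.65 (0.54 ± 0.17, adjusted p = 0.0111). Its call was lost without replicate 1 (0.50, adjusted p = 0.0935) or replicate 3 (0.49, adjusted p = 0.0777). RIP1 (YEL024W), the Rieske iron-sulphur protein, stood at 0.36, 1.25 and 0.40. Replicate 2 therefore stood apart, with a value at high power alone. RIP1 had a mean of 0.67 ± 0.50 (adjusted p = 0.0222), but stood at 0.38 without replicate 2 (adjusted p = 0.0532) and at 0.83 without replicate 1 (adjusted p = 0.0607).

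QCR6 (YFR033C), the acidic hinge protein near cytochrome c1, was lower on all arrays, at −0.32, −0.65 and −0.46. On replicates 1 and 2 it had a value at high power alone. QCR6 fell by 0.48 ± 0.17 on the log2 scale (adjusted p = 0.0181). This call was lost whichever array was left out, with an adjusted p of 0.0669, 0.0539 and 0.0815 without replicates 1, 2 and 3. The core subunits COR1 (YBL045C; −0.12 ± 0.06) and QCR2 (YPR191W; 0.27 ± 0.16), which face the matrix, were not called (adjusted p = 0.44 and 0.118). CYT1 (YOR065W), the cytochrome c1 gene, stood at −0.07, −0.68 and 0.31, with a mean of −0.15 ± 0.50 (adjusted p = 0.555). QCR7 (YDR529C), a matrix-side subunit, stood at 0.12, −0.58 and −0.25, with a mean of −0.24 ± 0.35 (adjusted p = 0.251). In both genes the arrays disagreed in sign and replicate 2 was lowest.

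Cytochrome c, the carrier between complexes III and IV, has a main form encoded by CYC1 and a minor form encoded by CYC7, which is known to be used more when oxygen is low. CYC7 (YEL039C) stood at 0.97, 0.43 and 0.79 and rose 1.66-fold (0.73 ± 0.27, adjusted p = 0.005). Its call was lost without replicate 1 (0.61, adjusted p = 0.0615). CYC1 (YJR048W) stood at −0.03, −0.25 and −0.10, below 0 on every array, and was not called (−0.13 ± 0.11, adjusted p = 0.415). The values of CYC7 and CYC1 did not overlap, and on replicate 2 both had a value at high power alone.

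Complex IV, cytochrome c oxidase, had 5 of 8 tested genes higher and 1 lower (26.0% and 24.2% of all genes), with a median of 0.41. COX9 (YDL067C), a small membrane subunit, stood at 1.12, 1.22 and 1.30 and rose 2.32-fold (1.22 ± 0.09, adjusted p = 0.000298). At the other end COX6 (YHR051W), a subunit of the matrix side, stood at −0.57, −0.60 and −0.55. Their SD was the smallest among the 40 tested members. COX6 fell by 0.58 ± 0.03, to 0.671 times the untreated level (adjusted p = 0.0061), and its call was lost without replicate 1 (−0.58, adjusted p = 0.0569).

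The other rises in complex IV were smaller and rested on 3 arrays. COX5B (YIL111W), the hypoxic form of subunit V, stood at 0.58, 0.27 and 0.63 (0.49 ± 0.20, adjusted p = 0.0175). COX13 (YGL191W) and COX8 (YLR395C), small subunits, had means of 0.48 ± 0.18 (adjusted p = 0.0188) and 0.47 ± 0.04 (adjusted p = 0.0143). The calls of these 3 genes were lost without replicate 1 (0.45, 0.40 and 0.48, adjusted p = 0.123, 0.143 and 0.0869) and without replicate 3 (0.42, 0.46 and 0.45, adjusted p = 0.114, 0.0988 and 0.086). COX12 (YLR038C), a subunit of the intermembrane space side, stood at 0.42, 0.27 and 0.35 and lay at the edge of the test (0.35 ± 0.07, adjusted p = 0.0464). It was lost whichever array was left out, with an adjusted p of 0.216, 0.053 and 0.164 without replicates 1, 2 and 3. It was lost also without centring (0.31, adjusted p = 0.0688), from high-power values only (0.33, adjusted p = 0.0613) or first (0.32, adjusted p = 0.0647), and with genes on at least 2 arrays added (adjusted p = 0.0541). COX4 (YGL187C; −0.03 ± 0.12), a zinc-binding subunit, and COX5A (YNL052W; −0.17 ± 0.12), the aerobic form of subunit V, were not called (adjusted p = 0.858 and 0.276).

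The ATP synthase had 6 of 15 tested genes higher and 1 lower (26.0% and 24.2% of all genes), with a median of 0.23. In the F1 head, which carries the catalytic sites, 1 of 5 genes rose, a share below that of all genes. ATP15 (YPL271W), the epsilon subunit of the rotor, stood at 1.38, 1.14 and 1.41 and rose 2.47-fold (1.31 ± 0.15, adjusted p = 0.000258). The alpha subunit ATP1 (YBL099W) stood at 0.23 ± 0.16 and the gamma subunit ATP3 (YBR039W) at 0.19 ± 0.15. ATP16 (YDL004W), the delta subunit, stood at 0.44, 0.06 and 0.12, with a mean of 0.21 ± 0.21. None of these 3 passed the test (adjusted p = 0.169, 0.253 and 0.231), although each lay above 0 on all arrays. The beta subunit ATP2 (YJR121W) stood at 0.06, 0.15 and 0.76 (0.32 ± 0.38, adjusted p = 0.142). Replicates 1 and 3 of ATP2 had a value at low power alone, whereas replicate 2 had both scans.

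The membrane sector and stalk of the ATP synthase, which hold the head in place and conduct protons, went in both directions. ATP18 (YML081C-A), the small subunit i/j, stood at 1.35, 0.73 and 1.20 and rose 2.14-fold (1.10 ± 0.32, adjusted p = 0.0012). ATP14 (YLR295C), subunit h of the stalk, stood at 0.57, 0.32 and 0.75 (0.55 ± 0.21, adjusted p = 0.0126), and ATP5 (YDR298C), the stalk subunit OSCP, at 0.36, 0.69 and 0.30 (0.45 ± 0.21, adjusted p = 0.026). ATP4 (YPL078C), subunit b of the same stalk, lay below 0 on all arrays, at −0.59, −0.42 and −0.45. It fell by 0.49 ± 0.09, to 0.712 times the untreated level (adjusted p = 0.0131). Without replicate 1 or 3 the adjusted p was 0.09 and 0.0956 for ATP14, 0.104 and 0.0655 for ATP5, and 0.108 and 0.0633 for ATP4, so their calls were lost. The ATP5 call was lost without replicate 2 as well (0.33, adjusted p = 0.0795), and from low-power values only (0.32, adjusted p = 0.0647).

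The other membrane and stalk genes were not called. ATP7 (YKL016C), subunit d, stood at −0.04 ± 0.07 (adjusted p = 0.804), and ATP17 (YDR377W), subunit f, at −0.19 ± 0.07 (adjusted p = 0.22). TIM11 (YDR322C-A) and ATP20 (YPR020W), subunits e and g, by which ATP synthases form dimers, stood at 0.17, −0.52 and 0.06 and at 0.25, −0.30 and 0.05. In each of this pair replicate 2 was below 0 and the other arrays above it (adjusted p = 0.648 and 0.989). ATP19 (YOL077W-A), subunit k, had 0.82 on replicate 1 and 0.78 on replicate 3. It was not in the main test, and passed when genes with values on 2 arrays were added (0.80, adjusted p = 0.0107).

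Both inhibitor genes of the ATP synthase rose (26.0% of all genes). INH1 (YDL181W) and STF1 (YDL130W-A) encode small proteins that bind F1 and block ATP hydrolysis when the proton gradient fails. STF1 stood at 1.16, 0.82 and 1.00 and rose 1.99-fold (0.99 ± 0.17, adjusted p = 0.000895). INH1 stood at 0.42, 0.32 and 0.72 and rose too (0.49 ± 0.21, adjusted p = 0.0192). The INH1 call was lost without replicate 1 (0.52, adjusted p = 0.0939) or replicate 3 (0.37, adjusted p = 0.139), whereas that of STF1 held without any 1 array.

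Complexes were compared by the median of their tested members on each array, as a description with no test, since the complexes hold few genes each. Complex II lay highest among complexes II to V on every array, at 0.84, 0.73 and 1.07 on replicates 1, 2 and 3. Complex IV followed in its overall median, at 0.43, 0.27 and 0.43, and complex V stood at 0.25, 0.15 and 0.30. Complex III stood at 0.10, 0.11 and 0.35, all above the median of its members' means (0.08). The ranges of complexes III, IV and V over arrays overlapped. From low-power values only, which cover fewer genes, the complex III median was −0.16 and that of the NADH dehydrogenases 0.15 in place of 0.80.

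**Figure D2:**
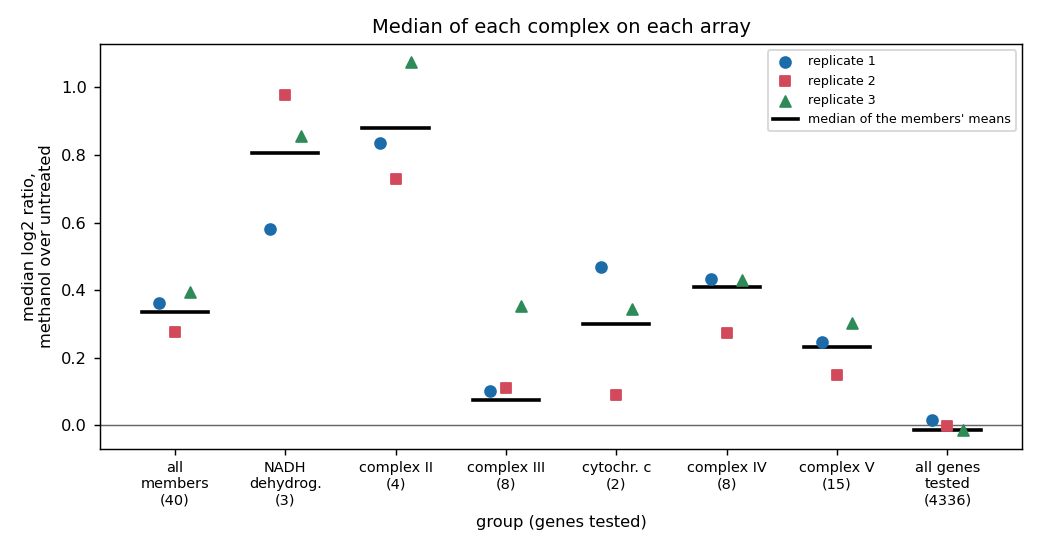
Median log2 ratio (vertical axis) of the tested members of each group on each array, with the number of genes in brackets and a line at the median of the members' means. Complex II lies between 0.73 and 1.07, above the 3 arrays of complexes III, IV and V, while all genes tested lie near 0.

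Within complexes II to V the distance between the highest and the lowest gene was larger than the SD of that distance over arrays. COX9 lay above COX6 by 1.79 ± 0.09, ATP15 above ATP4 by 1.80 ± 0.21, QCR9 above QCR6 by 1.42 ± 0.17 and SDH4 above SDH2 by 1.27 ± 0.19. These pairs were chosen after their values were seen, as the ends of each complex, so a wide distance is built in and no test is given. Some single genes varied more between arrays, such as RIP1 and CYT1 of complex III, each with an SD of 0.50. The median SD of the 40 members over arrays was 0.167, against 0.216 for all genes tested.

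At 3 steps the chain has alternative genes, and at each the gene known as the minor or hypoxic form, or the second dehydrogenase, had the higher ratio. Within arrays NDE2 exceeded NDE1 by 2.34, 2.73 and 2.14 (2.41 ± 0.30). CYC7 exceeded CYC1 by 1.00, 0.69 and 0.89 (0.86 ± 0.16), and COX5B exceeded COX5A by 0.72, 0.57 and 0.71 (0.67 ± 0.08). All 9 differences were above 0. The two-sided exact sign-flip permutation test gave p = 0.25 for each pair (0.25 after adjustment over the 3 pairs), the smallest p that this test can give with 3 arrays, so it cannot pass 0.05 here whatever the size of the difference. The COX5B difference was 0.56 with the high-power scans alone and 0.78 with the low-power scans alone. Each pair is similar in sequence, and the share of signal between paralogous spots was not tested.

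**Figure D3:**
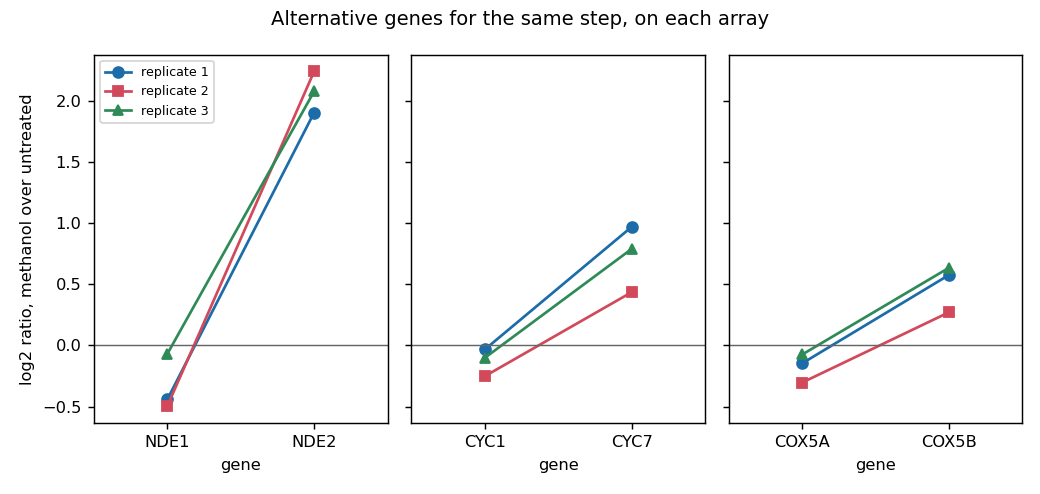
Log2 ratio of methanol over untreated (vertical axis) of 3 pairs of alternative genes, with 1 line per array joining the genes of a pair. All 9 lines slope upward from the main to the alternative gene, and NDE1, CYC1 and COX5A lie below 0 on every array.

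Of the 41 genes 31 had a value in all 6 scans. On replicates 1, 2 and 3 there were 37, 34 and 38 genes with both scans, 3, 6 and 1 with high power alone, and 1, 0 and 2 with low power alone. The difference of high minus low power had medians of 0.03, 0.00 and −0.01 and ran from −0.47 (STF1 on replicate 2) to 0.32. ATP18 on replicate 1 (1.12 and 1.49) and CYC7 on replicate 3 (0.57 and 0.96) were among those lower at high power.

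**Figure D4:**
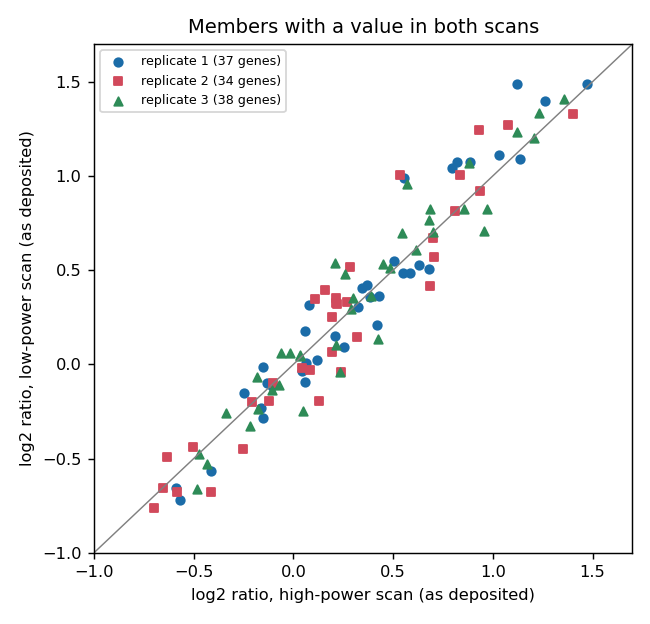
Deposited log2 ratio of the high-power scan (horizontal axis) against the low-power scan (vertical axis), before centring, for members with both values; each symbol is 1 gene on 1 array and the line marks equal values. Points follow the line, with differences from −0.47 to 0.32.

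Of the partner subunits encoded in mitochondrial DNA, looked at after the other values were seen, the 3 with values on all arrays were not called. Yeast mitochondrial messengers carry no poly(A) tail, whereas poly(A) RNA was labelled here. ATP6, the proton channel subunit, stood at −0.06 ± 0.26, OLI1, the rotor ring subunit, at 0.17 ± 0.29, and COX3 at 0.38 ± 0.28 (adjusted p = 0.758, 0.356 and 0.0637). COX2 and ATP8 had values on replicates 1 and 3 alone and were not tested. COX2 stood at 0.39 and 0.59, and ATP8 at 3.89 and 0.08, a gap wider than that between the arrays of any member.

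Other genes of the respiratory system, in 8 lists, had 86 of 93 genes with a named spot and 73 tested. Of these 73 genes, 25 were called higher and 5 lower (26.0% and 24.2% of all genes), with a median of 0.19. The share of the 73 called higher was thus somewhat above that of all genes, and the share called lower below it. These lists too were chosen with earlier results of these data known, so their shares are a description only. Without replicate 1, 12 of 76 were called higher and 1 lower (15.3% and 13.1% of all genes), and without replicate 3, 18 of 73 and 2 (20.0% and 17.0% of all genes). Of other dehydrogenases that pass electrons into the chain, 3 of 6 tested rose and 0 fell (median 0.73). CYB2, the lactate dehydrogenase that reduces cytochrome c, stood at 2.07 ± 0.02 (adjusted p = 5.34e-05), GUT2, the mitochondrial glycerol 3-phosphate dehydrogenase, at 1.95 ± 0.26 (adjusted p = 8.87e-05), and PUT1, proline oxidase, at 1.16 ± 0.16 (adjusted p = 0.00045). All 3 calls held without any 1 array.

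For complex II, 5 of 6 tested assembly factors and paralogues rose and 0 fell (26.0% and 24.2% of all genes), with a median of 0.79. Without replicate 1, 3 of 6 were called higher (15.3% of all genes). With the low-power scans alone, or with values in all 6 scans, 0 genes of this list could be tested. SDH9, the paralogue of SDH1, stood at 1.63 ± 0.38 (adjusted p = 0.000298) and SHH3, the paralogue of SDH3, at 1.20 ± 0.04 (adjusted p = 0.00029). SHH4, the paralogue of SDH4, had 1.71 and 1.98 on replicates 1 and 3 and was not tested. Signal may be shared between these genes and the members they resemble, which was not tested.

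Among 22 complex IV assembly factors tested, 10 rose and 0 fell (26.0% and 24.2% of all genes), with a median of 0.29. However, 2 of 22 were called higher without replicate 1 and 5 of 22 without replicate 3. In those fits 15.3% and 20.0% of all genes were called higher. COX19, a copper-linked factor, had the largest ratio at 0.89 ± 0.10 (adjusted p = 0.00112). The list for complex III and cytochrome c maturation had 2 of 12 higher and 3 lower (median −0.19), or 1 lower without replicate 1 (13.1% of all genes). Its share called higher was below the 26.0% of all genes, and its share called lower near the 24.2%. CBP4, a complex III assembly factor, at 0.98 ± 0.13 (adjusted p = 0.000774) moved most. Of 11 ATP synthase assembly factors, 2 were higher and 2 lower (median −0.13), both below the shares of all genes. Without replicate 1 these counts were 1 and 0 of 12 (15.3% and 13.1% of all genes). Without replicate 3 they were 1 and 0 of 11 (20.0% and 17.0% of all genes). NCA3, at 2.52 ± 0.36 (adjusted p = 6.56e-05), stood far above the others; it is known for a part in expression of ATP6 and ATP8, but belongs to the SUN family, whose members are linked to the cell wall and septum.

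Of 11 coenzyme Q genes, 2 were higher and 0 lower (median 0.15), both below the 26.0% and 24.2% of all genes. Only 1 was higher without replicate 1 or without replicate 2 (15.3% and 23.7% of all genes). COQ4 had the largest called ratio, 0.77 ± 0.29 (adjusted p = 0.00436). Among 3 accessory proteins STF2, which is known as a stabiliser of the bound inhibitors and as a hydrophilin, rose by 0.92 ± 0.46 (adjusted p = 0.00502). The STF2 call was lost without replicate 1 (0.69, adjusted p = 0.0521). Of 8 regulators 2 (HAP4 and ROX1) had values on 3 arrays, and limma called 0 of them in either direction. HAP4 stood at 0.17, −0.36 and 0.11 (−0.03 ± 0.29, adjusted p = 0.896), with no common sign over the arrays. HAP2 had 0.74 and 0.39 on replicates 1 and 3, HAP5 −0.01 and 0.25 on the same arrays, and HAP3 0.30 and 0.39 on replicates 2 and 3, while HAP1 had no named spot. When genes with values on 2 arrays were added, 7 regulators were tested and HAP2 was called higher (0.56, limma adjusted p = 0.0449). The limma fit without replicate 2 rests on the same 2 values of HAP2 (adjusted p = 0.0249), so its call adds no support.

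**Figure D5:**
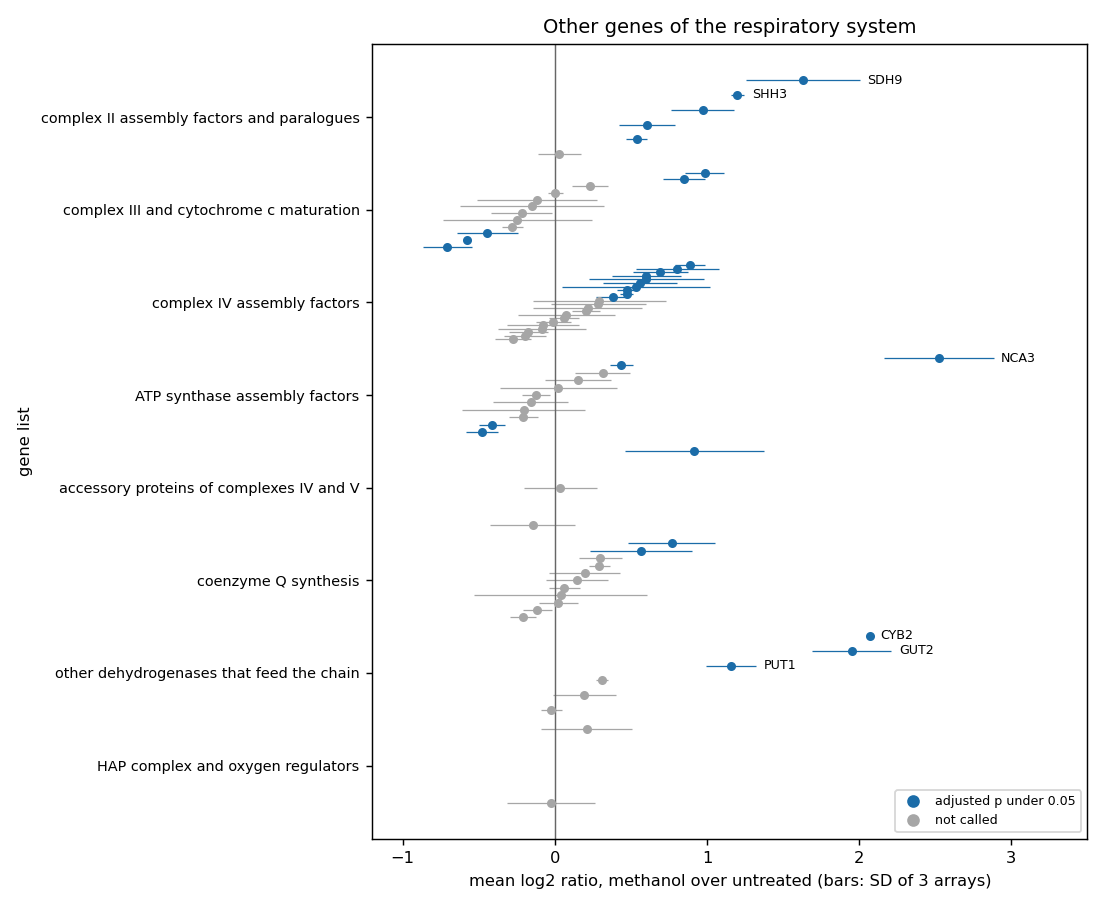
Mean log2 ratio (horizontal axis, bars: SD of 3 arrays) of the 73 tested genes in 8 related lists, in blue where the adjusted p was under 0.05, with called genes of at least 2-fold named. CYB2, GUT2 and NCA3 lie near or above 2, and complex III maturation and ATP synthase assembly hold genes called on either side of 0.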

How the data were processed

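RNA of 3 pairs of cultures was compared on 2-colour arrays of 6912 spots, in 6 scans. The deposited values are log ratios, read here as log2, and per the labels the authors normalized spots of flag 0 with LOWESS; the merged value of the scans is not used here, and background correction and log base are not given in the sources used here. No intensities were used, so depth or signal over background is unknown and the number of arrays limits precision. Names came from the platform annotation (5446 spots, matched to the R64 gene table). No sequence tables came with these data, so no sequence is shown.

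Scans with a value were averaged per spot and then spots per gene. The median over genes (−0.05, −0.05 and −0.02 on replicates 1 to 3) was subtracted from each array. Both scans count as 1 replicate. Genes with values on 3 arrays were tested against 0 by an intercept-only model with moderated variances in limma 3.58.1 (R 4.3.3), adjusted by Benjamini-Hochberg over all genes tested and called under 0.05. Isoform differences had an exact sign-flip test. The fit was tested on simulated data. Members and lists were chosen with earlier results of these data known. All members are named; of each related list, called genes with an absolute log2 ratio of at least 1, or else the largest called, and HAP1 to HAP5. Alternatives covered scan, centring, filters, robust fit, array weights and each replicate left out. Centring within the 8 blocks of spot IDs was chosen after seeing the data.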

Additional observations from a re-analysis of the deposited data

How the results depend on the processing

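The members' median lay between 0.29 and 0.38 under all alternatives run. With 1 array left out in turn, 10 to 18 members were called higher and 0 to 2 lower, and 12 to 26 related genes higher and 1 to 6 lower, with fewer arrays in the fit. Of all genes, 15.3% to 23.7% were called higher and 13.1% to 21.8% lower in the same fits, so the 12 of 76 related genes without replicate 1 lay near the share of all genes. The complex V median ran from 0.24 to 0.32 with an array left out, against 0.23 in the main fit and 0.19 without centring. With the low-power scans alone (33 members and 22 related genes tested) the median of NADH dehydrogenases was 0.15 and that of complex III −0.16. In that setting COX5B minus COX5A was 0.78, and CYC7 minus CYC1 was 1.04 (replicates 1 and 3, as replicate 2 has no low-power value). There 6 of 22 related genes were higher and 1 lower (25.2% and 28.4% of all genes). With values in all 6 scans the medians were 0.26 and −0.10. Of 22 related genes tested there, 7 were higher and 1 lower (28.0% and 31.5% of all genes). Both settings drop NDE2 and test fewer genes, and in both the related genes called higher lay near the share of all genes. COX5B minus COX5A was 0.56 with high power alone or first and 0.50 when centred within blocks of spot IDs, where the cause was not tested. Among single members, signs turned in these runs only for genes that were not called: COX4 (0.068 at high power alone, 0.063 at high power first, −0.076 to 0.040 with an array left out), ATP7 (0.014 and 0.0088 in the same high-power settings), ATP20 (0.091 with array weights, 0.034 within blocks, −0.13 to 0.15 with an array left out), TIM11 (0.030 with array weights, −0.23 to 0.11) and CYT1 (−0.37 to 0.12). With no intensities, signal over background could not be weighed.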
